A study of Schizosaccharomyces pombe with 24 samples.

Results

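The peroxide and glutathione defence genes described here are srx1, tpx1, ctt1, gpx1, trx2, gst1, gst2, gst3, obr1 and pgt1 of the fission yeast Schizosaccharomyces pombe. They were chosen by symbol, with the brightest probe set standing for each gene. All 10 were found, each with 1 probe set, among the 4981 features tested. Messenger RNA was measured on Affymetrix Yeast Genome 2.0 arrays in asynchronous cultures of strains that lacked or were reduced in histone acetyltransferases, to ask whether these enzymes act on common genes. The 24 arrays fell into 9 groups, with cultures grown at 30 °C by the labels.

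The groups that kept gcn5 were wild type, Δmst2, Δelp3, Δmst2 Δelp3 and mst1-ts, each with 3 arrays. Those that lacked it were Δgcn5 and Δgcn5 Δmst2 with 3 arrays each, Δgcn5 Δelp3 with 2, and the triple mutant Δgcn5 Δelp3 Δmst2 with 1. Gcn5 and Elp3 are acetyltransferases of the GNAT family, and Mst1 and Mst2 are of the MYST family, of which Mst1 is essential. By the study's strain list, the ura4 gene replaced mst2 in the Δmst2 strains, and the mst1-ts strain had the chromosomal mst1 deleted and carried a mutant copy under the nmt promoter at leu1. In the same list the Δgcn5 strain was of the other mating type (h-) from the rest (h+), and only Δgcn5 and Δgcn5 Δmst2 carried the his3-D1 deletion. Replicates were independent isolates of a strain, so a group speaks for 1 strain construction.

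Cells remove hydrogen peroxide with catalase, with peroxiredoxins that are recharged by thioredoxin, and with glutathione peroxidases that draw on glutathione. Fission yeast turns these genes on through Pap1, a transcription factor that gathers in the nucleus at low peroxide levels, and through the stress kinase Sty1 and its partner Atf1 at high levels. Glutathione S-transferases join glutathione to toxic compounds, and Gcn5 is known as a coactivator for stress genes in this yeast. No stress was applied to the cultures of these arrays, so the values are those of growing cells.

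Values are log2 intensities, and a difference of 1 is a 2-fold change. A level is a mean over the culture, so a change in few cells and a smaller change in every cell cannot be told apart. Differences are given with their standard error (SE) from a limma model with a mean for each group, and a gene is said to have risen or fallen where its p-value, adjusted over all 4981 features by Benjamini-Hochberg, was under 0.05. A level of 1 gene was not set against that of another.

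The deleted genes read out their own labels in most libraries. The gcn5 transcript lay at 5.15 to 5.72 in 8 arrays of strains lacking it and at 10.58 to 11.28 in 14 arrays of strains keeping it. The library labelled Δgcn5 replicate 2 went against its label, with gcn5 at 10.93 and mst2 at 5.21. So did the library labelled Δmst2 replicate 2, with gcn5 at 5.44 and mst2 at 10.01. The former had ura4 at 13.30 and his3 at 13.69, and other Δmst2 arrays had 13.08 and 13.50, and 13.07 and 13.61. The latter had ura4 at 7.18 and his3 at 5.90, and other Δgcn5 arrays had 7.39 and 7.33, and 6.18 and 5.94. On these transcripts each library was like the arrays of the other's label, and an exchange of labels was not tested. The ura4 transcript was high in wild-type replicate 2, at 12.85, and low in replicates 1 and 3, at 7.40 and 7.45. The mst2 transcript lay at 8.73 in wild-type replicate 2 and at 9.89 and 10.13 in replicates 1 and 3. The cause was not tested, and this array was left out only where stated. Arrays of a group correlated at 0.96 to 1.00 without the first 2 of these libraries and at 0.92 to 0.97 in the pairs that held them. All arrays were kept under their labels, and the counts and the differences of the 10 genes are given in the main comparisons also with Δgcn5 replicate 2 and Δmst2 replicate 2, called the doubted libraries, left out.

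With all arrays pgt1, trx2, obr1 and gst1 fell and gpx1 and gst3 rose with loss of gcn5 in a mean over 4 backgrounds. The comparison was the mean of 4 differences, each between a strain lacking gcn5 and its match that kept it: Δgcn5 against wild type, Δgcn5 Δmst2 against Δmst2, Δgcn5 Δelp3 against Δelp3, and the triple mutant against Δmst2 Δelp3. With all arrays 4 of the 10 genes fell, where 11.3% of all features did, and 2 rose, where 11.6% did. Without the doubted libraries 5 fell, gst2 being added, against 17.4% of all features, and the same 2 rose against 18.2%. The median difference of the 10 genes was -0.28 with all arrays and -0.37 without the doubted libraries, against -0.01 for all features in both. The 10 genes were chosen with earlier results of these data known, so the comparison with all features only describes them. The genes tpx1, ctt1 and srx1 did not pass the test in either form of this mean. Within the arrays of the second experiment date, which hold the Δelp3 and Δmst2 Δelp3 backgrounds, 4 fell, against 14.3% of all features, and 2 rose, against 11.9%. Among these rises was that of srx1, at 0.96. The difference of srx1 was -0.81 in Δelp3 and 2.73 in Δmst2 Δelp3, so its rise rests on the 1 triple mutant array. Within the arrays of the first date, which hold the other backgrounds and both doubted libraries, 1 fell, against 2.39%, and 0 rose, against 3.17%.

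**Figure D1:**
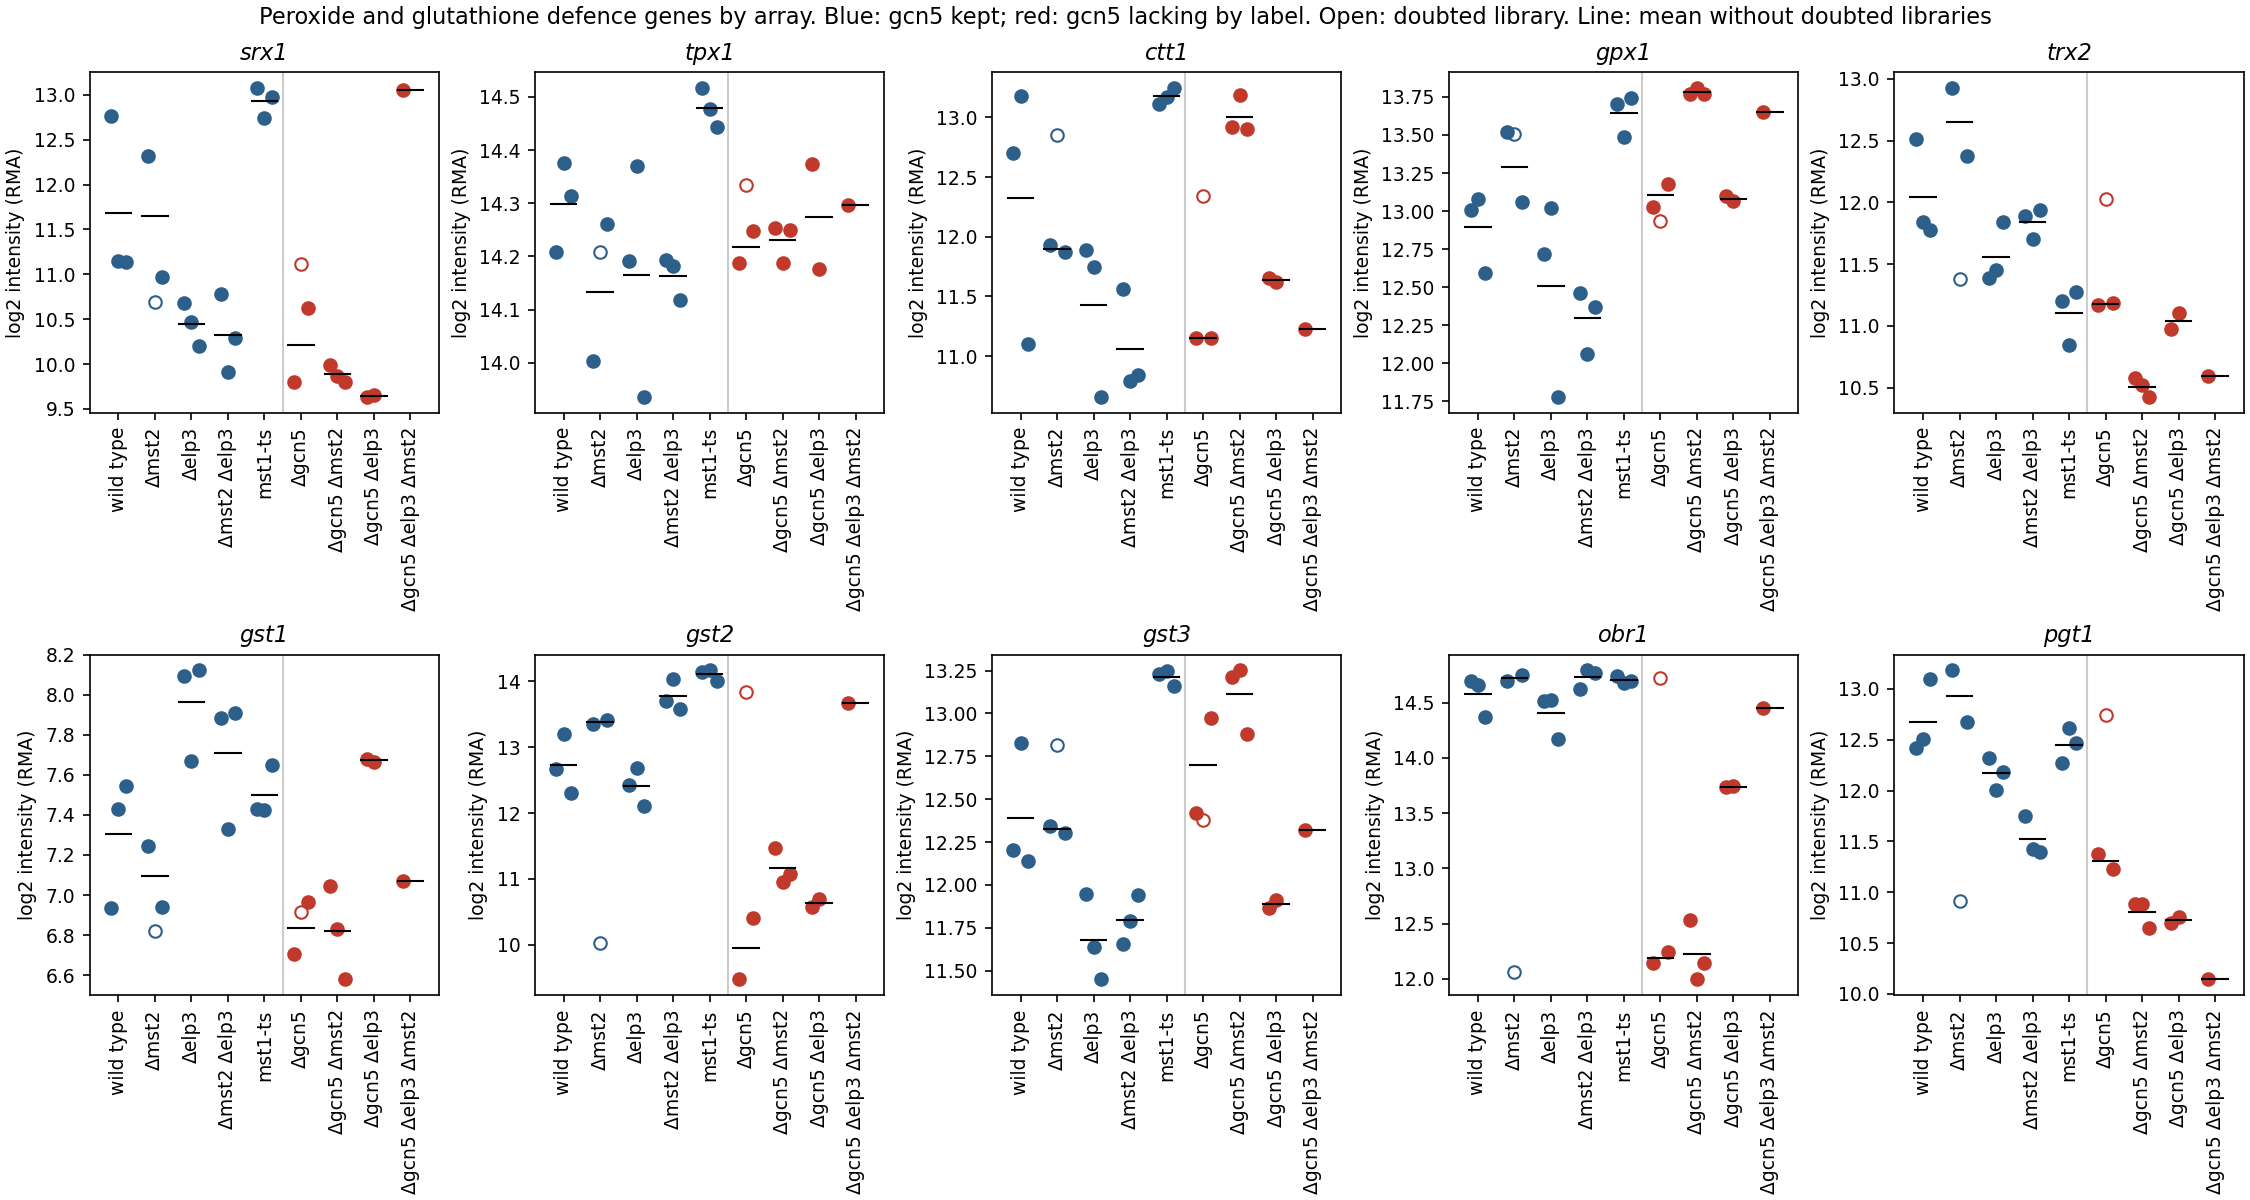
Log2 intensity of each of the 10 genes on each of the 24 arrays by group, with a separate vertical scale for each gene. Filled blue points are strains that kept gcn5, filled red points strains that lacked it, open points the 2 doubted libraries, and black lines group means without them. The pgt1 panel has all filled red points at or below 11.38 and all filled blue points at or above 11.40.

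The gene pgt1 encodes the plasma membrane glutathione transporter. It lay at 12.42, 12.50 and 13.10 in wild type, at 13.19, 10.92 and 12.68 in Δmst2, at 12.32, 12.00 and 12.18 in Δelp3, at 11.75, 11.42 and 11.40 in Δmst2 Δelp3, and at 12.27, 12.62 and 12.46 in mst1-ts. In the strains lacking gcn5 it lay at 11.38, 12.74 and 11.23 in Δgcn5, at 10.89, 10.88 and 10.64 in Δgcn5 Δmst2, at 10.69 and 10.76 in Δgcn5 Δelp3, and at 10.14 in the triple mutant. The values 10.92 and 12.74 belong to the doubted libraries. Without those, every strain lacking gcn5 was below every strain keeping it, with 8 arrays at 10.14 to 11.38 and 14 arrays at 11.40 to 13.19.

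The mean difference of pgt1 over the 4 backgrounds was -1.29 ± 0.24 with all arrays (limma, adjusted p = 0.00126), a 2.45-fold lower level. It was -1.58 ± 0.10 without the doubted libraries (adjusted p = 1.05e-08), a 2.99-fold lower level. The 4 backgrounds then gave -1.37 ± 0.19 in wild type, -2.13 ± 0.19 in Δmst2, -1.44 ± 0.19 in Δelp3 and -1.38 ± 0.25 in Δmst2 Δelp3, and pgt1 fell in each. With all arrays it passed the test in 1 background, Δmst2 (adjusted p = 0.0191), a call that is lost without Δmst2 replicate 1 or Δmst2 replicate 3. The mean over the 4 backgrounds kept its call without any single array.

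The gene trx2 encodes the mitochondrial thioredoxin. It lay at 12.51, 11.84 and 11.78 in wild type, at 12.93, 11.38 and 12.38 in Δmst2, at 11.38, 11.45 and 11.84 in Δelp3, and at 11.89, 11.70 and 11.94 in Δmst2 Δelp3. In the strains lacking gcn5 it lay at 11.17, 12.03 and 11.19 in Δgcn5, at 10.58, 10.52 and 10.42 in Δgcn5 Δmst2, at 10.97 and 11.11 in Δgcn5 Δelp3, and at 10.59 in the triple mutant. Each of these groups was below its match once the doubted libraries were set aside, but mst1-ts, which keeps gcn5, was also low, at 11.20, 10.85 and 11.27. The mean difference was -1.02 ± 0.17 with all arrays (adjusted p = 0.00051) and -1.20 ± 0.11 without the doubted libraries (adjusted p = 6.6e-07). It was -0.87 ± 0.21 in wild type, -2.15 ± 0.21 in Δmst2, -0.52 ± 0.21 in Δelp3 and -1.25 ± 0.27 in Δmst2 Δelp3 without the doubted libraries, and trx2 fell in all of these but Δelp3 (adjusted p = 0.283).

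The gene obr1 encodes a flavodoxin-like protein whose transcription depends on Pap1. It lay at 14.18 to 14.80 in the 14 arrays of strains keeping gcn5, with the doubted library of Δmst2 at 12.06. In the strains lacking gcn5 it lay at 12.14, 14.72 and 12.24 in Δgcn5, at 12.53, 11.99 and 12.14 in Δgcn5 Δmst2, at 13.73 and 13.74 in Δgcn5 Δelp3, and at 14.45 in the triple mutant. The value 14.72 is that of the doubted library. The low levels were thus those of Δgcn5 and Δgcn5 Δmst2, Δgcn5 Δelp3 was intermediate, and the triple mutant lay within the range of the strains keeping gcn5.

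The mean difference of obr1 was -1.03 ± 0.34 with all arrays (adjusted p = 0.0367), and this call was lost when any of 13 of the 24 arrays was left out and, with the replicate number as a block, at an adjusted p of 0.051. Without the doubted libraries it was -1.46 ± 0.08 (adjusted p = 8.98e-10), a 2.75-fold lower level. It was then -2.39 ± 0.15 in wild type, -2.50 ± 0.15 in Δmst2, -0.67 ± 0.15 in Δelp3 and -0.28 ± 0.18 in Δmst2 Δelp3, and obr1 fell in the first 3. With all arrays the call in the Δmst2 background was lost under the replicate block (adjusted p = 0.0651). The strains with the lowest obr1 also carried his3-D1: the his3 transcript lay at 5.94 to 6.44 in Δgcn5 and Δgcn5 Δmst2 without the doubted library, and at 13.36 to 13.46 in Δgcn5 Δelp3 and the triple mutant. The presence of elp3 and the his3 deletion go together among the strains lacking gcn5, so they cannot be told apart as to the level of obr1.

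**Figure D2:**
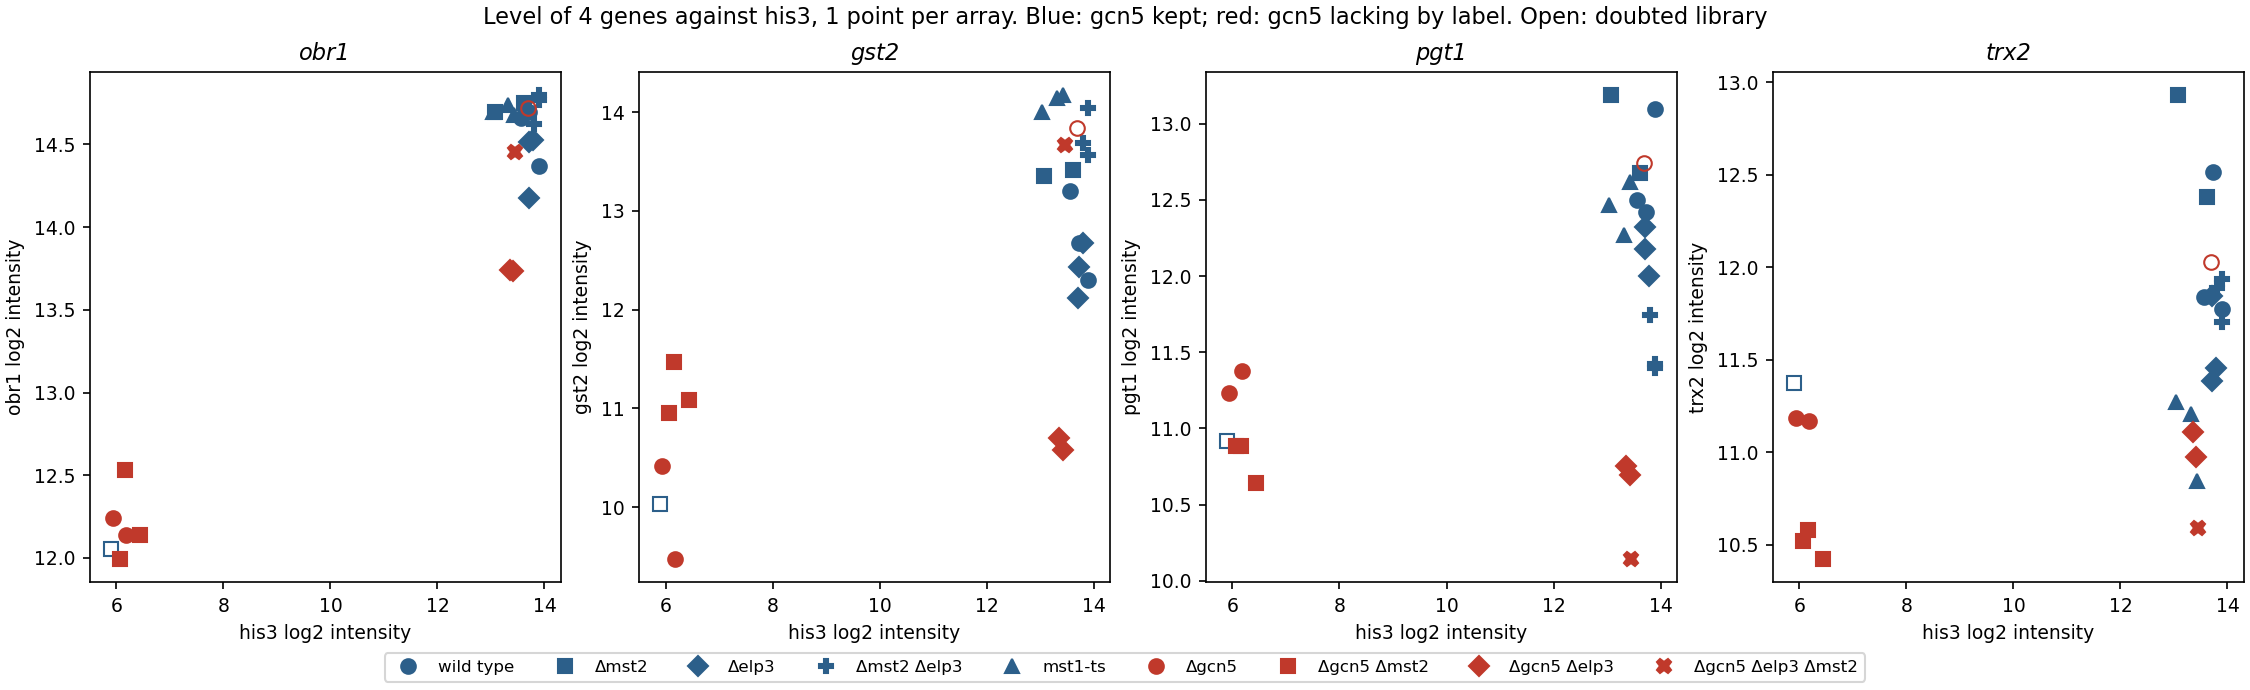
Log2 intensity of obr1, gst2, pgt1 and trx2 against that of his3 on each of the 24 arrays, with blue for strains that kept gcn5, red for those that lacked it, open symbols for the doubted libraries and a symbol for each group. Red points at a his3 level of 5.94 to 6.44 are Δgcn5 and Δgcn5 Δmst2, and those at 13.36 to 13.46 are Δgcn5 Δelp3 and the triple mutant, where obr1 is higher but pgt1 is not.

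The gene gst2 encodes a glutathione S-transferase. It lay at 12.67, 13.20 and 12.31 in wild type, at 13.35, 10.03 and 13.41 in Δmst2, at 12.43, 12.68 and 12.11 in Δelp3, at 13.69, 14.04 and 13.57 in Δmst2 Δelp3, and at 14.14, 14.17 and 14.00 in mst1-ts. In the strains lacking gcn5 it lay at 9.48, 13.84 and 10.41 in Δgcn5, at 11.47, 10.95 and 11.08 in Δgcn5 Δmst2, at 10.58 and 10.70 in Δgcn5 Δelp3, and at 13.67 in the triple mutant. The values 10.03 and 13.84 are those of the doubted libraries. Apart from these and the triple mutant, every strain lacking gcn5 was below every strain keeping it.

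The mean difference of gst2 was -1.11 ± 0.48 with all arrays (adjusted p = 0.103). It was -1.72 ± 0.14 without the doubted libraries (adjusted p = 1.52e-07), a 3.29-fold lower level, and -2.25 ± 0.15 when the triple mutant array was left out as well (adjusted p = 1.79e-08). Leaving out only Δgcn5 replicate 2 gave -1.44 (adjusted p = 0.00577) and only Δmst2 replicate 2 gave -1.39 (adjusted p = 0.0124). With the doubted libraries alone left out, the difference of gst2 was -2.78 ± 0.27 in wild type, -2.22 ± 0.27 in Δmst2 and -1.77 ± 0.27 in Δelp3, and gst2 fell in each of these. It was -0.10 ± 0.34 in Δmst2 Δelp3 (adjusted p = 0.898).

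The other glutathione S-transferases differed from gst2. The gene gst1 was dim, at 6.58 to 7.68 in 8 arrays lacking gcn5 and 6.94 to 8.12 in 14 arrays keeping it, and the ranges overlapped. It fell by 0.39 ± 0.11 with all arrays (adjusted p = 0.0142) and by 0.42 ± 0.11 without the doubted libraries (adjusted p = 0.00881), and in no single background. The gene gst3 rose instead, by 0.39 ± 0.11 with all arrays (adjusted p = 0.0182) and by 0.46 ± 0.11 without the doubted libraries (adjusted p = 0.00365). Its ranges overlapped as well, with 11.86 to 13.25 in strains lacking gcn5 and 11.45 to 13.25 in strains keeping it. With all arrays it passed the test in 1 background, Δmst2, with a rise of 0.63 ± 0.20 (adjusted p = 0.0262). Against all 5 groups keeping gcn5, mst1-ts included, the difference of gst3 was 0.17 ± 0.11 (adjusted p = 0.297). Its call was lost in 3 of 14 alternatives other than leaving out 1 array.

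The gene gpx1 encodes a peroxidase of the glutathione peroxidase family. It lay at 13.00, 13.08 and 12.60 in wild type, at 13.52, 13.51 and 13.06 in Δmst2, at 12.72, 13.02 and 11.78 in Δelp3, and at 12.46, 12.06 and 12.37 in Δmst2 Δelp3. In the strains lacking gcn5 it lay at 13.03, 12.94 and 13.18 in Δgcn5, at 13.77, 13.81 and 13.77 in Δgcn5 Δmst2, at 13.10 and 13.07 in Δgcn5 Δelp3, and at 13.65 in the triple mutant. The groups lacking gcn5 were above their matches in all but the wild-type background, where Δgcn5 overlapped wild type. The mean difference was 0.62 ± 0.13 with all arrays (adjusted p = 0.00236) and 0.66 ± 0.14 without the doubted libraries (adjusted p = 0.00166). Of the backgrounds gpx1 passed the test in Δmst2 Δelp3, with a rise of 1.35 ± 0.32 (adjusted p = 0.0151), which rests on the 1 triple mutant array. Without that array the mean difference was 0.38 (adjusted p = 0.0567), and 0.43 ± 0.15 without it and the doubted libraries (adjusted p = 0.0359).

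The other peroxide genes gave no call in the mean over the 4 backgrounds. The peroxiredoxin gene tpx1, whose product also passes the peroxide signal on to Pap1 and Sty1, had the narrowest range of the 10 over all arrays, at 13.94 to 14.52, with a mean difference of 0.07 ± 0.06 (adjusted p = 0.425). The catalase gene ctt1 spread from 10.66 to 13.25, and within wild type alone it lay at 12.70, 13.18 and 11.10. Its mean difference was 0.09 ± 0.26 (adjusted p = 0.819) with all arrays and 0.08 ± 0.24 (adjusted p = 0.834) without the doubted libraries. In that second form the difference was -1.17 ± 0.44 in wild type (adjusted p = 0.145) and 1.11 ± 0.44 in Δmst2 (adjusted p = 0.0532). The gap between these, 2.28 ± 0.62, had an adjusted p of 0.0542. Without wild-type replicate 2 as well, ctt1 rose in Δmst2 (adjusted p = 0.0308). It was high at 12.92, 13.19 and 12.91 in Δgcn5 Δmst2. It lay at 11.93, 12.86 and 11.87 in Δmst2 and at 11.15, 12.34 and 11.15 in Δgcn5. The values 12.86 and 12.34 are those of the doubted libraries.

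The gene srx1 encodes sulfiredoxin, which repairs peroxiredoxin that peroxide has overoxidised. It lay at 12.76, 11.15 and 11.14 in wild type, at 12.32, 10.69 and 10.97 in Δmst2, at 10.68, 10.47 and 10.20 in Δelp3, and at 10.78, 9.91 and 10.29 in Δmst2 Δelp3. In the strains lacking gcn5 it lay at 9.81, 11.11 and 10.63 in Δgcn5, at 9.99, 9.87 and 9.81 in Δgcn5 Δmst2, at 9.63 and 9.65 in Δgcn5 Δelp3, and at 13.05 in the triple mutant. Leaving the doubted libraries aside, the 7 arrays of the first 3 groups were below those of their matches, and the triple mutant was above every array of Δmst2 Δelp3. The mean difference over the 4 backgrounds was -0.17 ± 0.24 (adjusted p = 0.644) with all arrays, but -1.14 without the triple mutant array (adjusted p = 0.00727) and -1.34 ± 0.25 without that and the doubted libraries (adjusted p = 0.000699).

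The number of genes called differed between the backgrounds along with that of all features. With all arrays 0 of the 10 changed in the wild-type background against 0.12% of all features, 5 in Δmst2 against 28.2%, 0 in Δelp3 against 1.1%, and 2 in Δmst2 Δelp3 against 6.91%. Before adjustment, 3 in the wild-type background and 2 in Δelp3 had p-values under 0.05. The share of all features under that unadjusted threshold is not given, so these counts show no excess. Without the doubted libraries 4 changed in wild type against 6.08%, 6 in Δmst2 against 43.3%, 3 in Δelp3 against 2.71%, and 4 in Δmst2 Δelp3 against 11.5%. The gene pgt1 was called in all 4 backgrounds in this form, and trx2, gst2 and obr1 in 3 each. With the fold threshold of the study's methods asked for as well, a log2 difference of 1.7, 2 remained in wild type against 1.06% of all features, 5 in Δmst2 against 3.49%, 1 in Δelp3 against 0.562% and 1 in Δmst2 Δelp3 against 2.33%. The Δmst2 Δelp3 counts rest on the 1 triple mutant array, whose spread is taken to be that of the other groups.

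**Figure D3:**
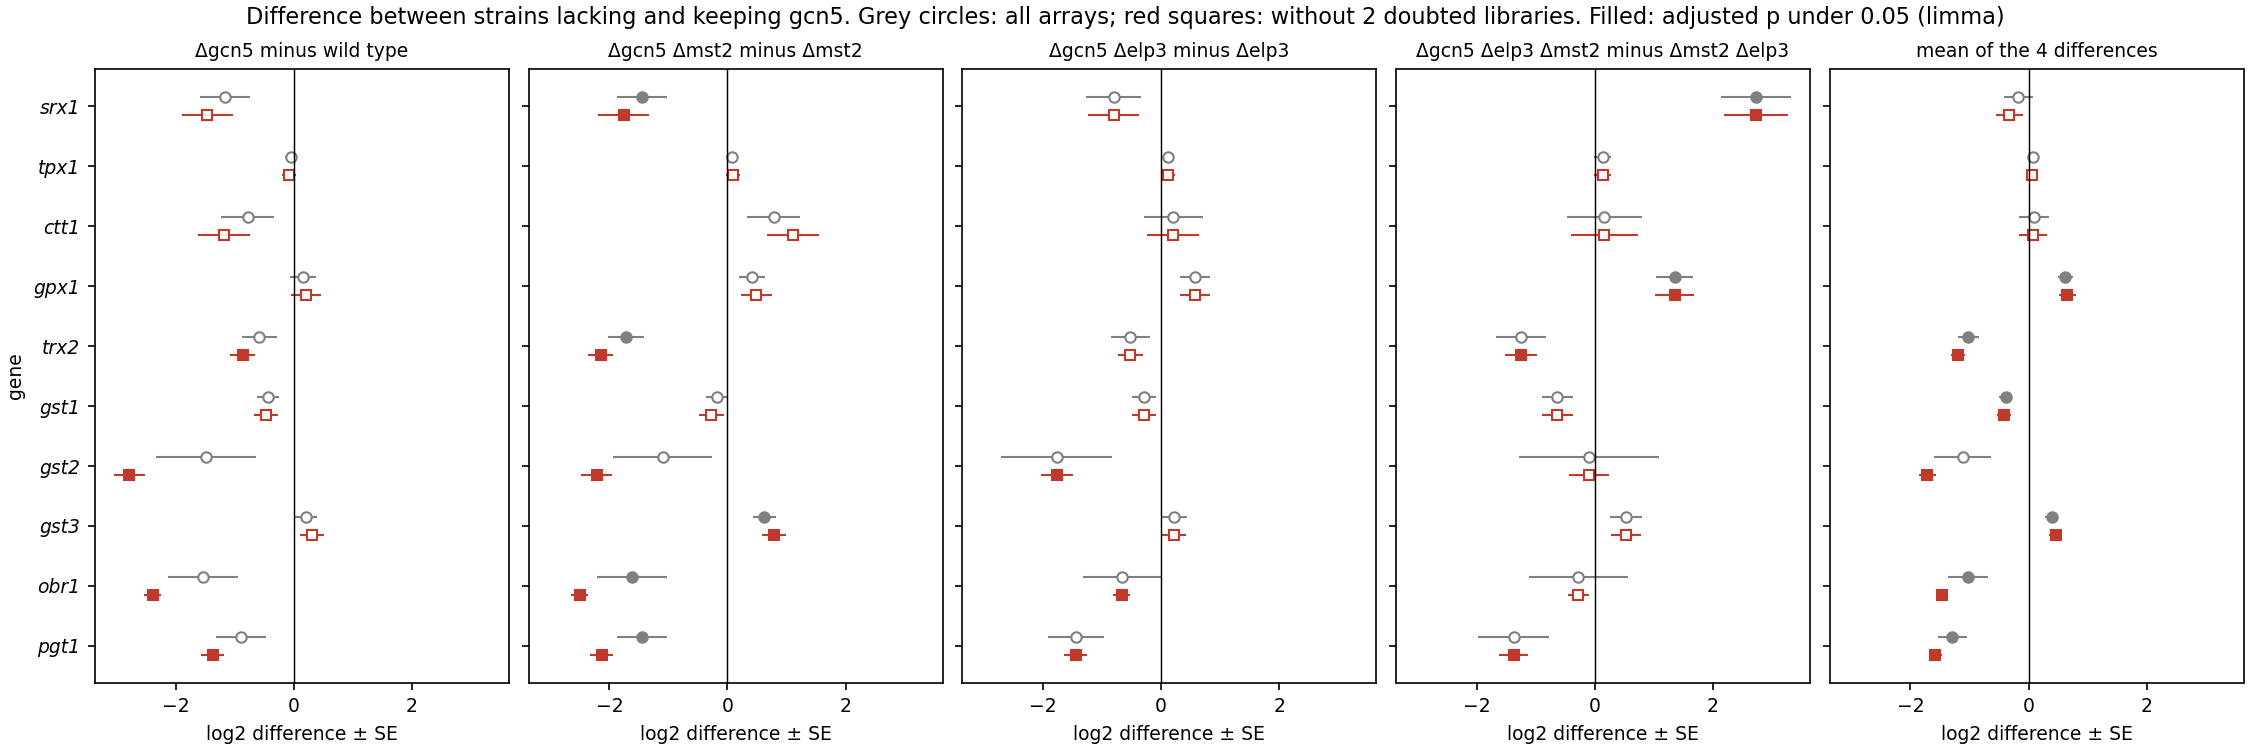
Log2 difference with its SE between each strain lacking gcn5 and its match that kept it, for the 10 genes in the 4 backgrounds and for the mean of the 4. Grey circles use all arrays and red squares leave out the 2 doubted libraries, with filled symbols where the adjusted p-value was under 0.05. The difference of srx1 is below 0 in the first 3 backgrounds and 2.73 in the fourth.

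The difference between backgrounds was tested itself. Between the Δelp3 and wild-type backgrounds 0 of the 10 genes differed with all arrays, against 0.341% of all features and with 0 of the 10 at an unadjusted p under 0.05, and 1 without the doubted libraries, against 1.14%. That gene was obr1, whose fall was smaller in Δelp3 by 1.72 ± 0.21 (adjusted p = 0.000118). Between the Δmst2 and wild-type backgrounds 0 differed with all arrays, against 1.39%. There 2 had an unadjusted p under 0.05, for which no share of all features is given. Without the doubted libraries 1 differed, against 3.63%. That gene was trx2, whose fall was larger in Δmst2, with a difference of -1.28 ± 0.30 (adjusted p = 0.0254), but leaving out wild-type replicate 2 as well gave an adjusted p of 0.0649.

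With loss of mst2, gst2 was the gene with the largest difference, but no gene passed the test with all arrays. The comparison was again the mean of 4 differences, from wild type to Δmst2, from Δgcn5 to Δgcn5 Δmst2, from Δelp3 to Δmst2 Δelp3 and from Δgcn5 Δelp3 to the triple mutant. With all arrays 0 of the 10 genes changed, against 11.8% of all features, and without the doubted libraries 4 changed, against 14.7%. With all arrays 5 had an unadjusted p under 0.05, for which no share of all features is given. The difference of gst2 was 0.96 ± 0.48 with all arrays (adjusted p = 0.204) and -0.25 on the first date alone. That date holds both doubted libraries, with gst2 at 13.84 in Δgcn5 replicate 2 and 10.03 in Δmst2 replicate 2. With the doubted libraries left out gst2 rose by 1.57 ± 0.14 (adjusted p = 2.28e-06), srx1 by 0.73 ± 0.23 (adjusted p = 0.0447) and obr1 by 0.30 ± 0.08 (adjusted p = 0.0161), and pgt1 fell by 0.37 ± 0.10 (adjusted p = 0.0274). Without the triple mutant array as well, only 1 of these, gst2, still passed the test, and srx1 was at -0.16. The difference of gst2 was then 1.08 ± 0.15 (adjusted p = 0.000197). In Δmst2 against wild type alone it was 0.66 ± 0.27 (adjusted p = 0.13).

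In mst1-ts against wild type the share of these genes that changed was near that of all features. With all arrays 4 of the 10 changed, against 35.6% of all features, and 5 without the doubted libraries, against 40.4%. The gene srx1 lay at 13.08, 12.74 and 12.98 in mst1-ts and rose by 1.25 ± 0.42 (adjusted p = 0.0286), gpx1 lay at 13.70, 13.49 and 13.74 and rose by 0.75 ± 0.23 (adjusted p = 0.015), and gst3 lay at 13.23, 13.25 and 13.16 and rose by 0.82 ± 0.20 (adjusted p = 0.00349). The gene trx2 fell by 0.94 ± 0.30 (adjusted p = 0.0219). The call of gst3 was kept without any single array, whereas those of srx1, gpx1 and trx2 were each lost without a wild-type array: srx1 without replicate 2 or 3, gpx1 without replicate 3, and trx2 without replicate 1. Those of srx1 and trx2 were also lost without an mst1-ts array, replicate 1 or 3 for srx1 and replicate 2 for trx2. The gene gst2 rose by 1.38 ± 0.24 without the doubted libraries only (adjusted p = 0.000303).

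In Δelp3 against wild type 3 of the 10 genes changed with all arrays, against 21.5% of all features, and 4 without the doubted libraries, against 26.5%. With all arrays srx1 fell by 1.24 ± 0.42 (adjusted p = 0.0445), gst3 fell by 0.71 ± 0.20 (adjusted p = 0.0153) and gst1 rose by 0.66 ± 0.19 (adjusted p = 0.0173). The Δelp3 arrays were of another experiment date than the wild-type arrays, so date and deletion cannot be told apart here. Each of the 3 calls was lost without some single array: srx1 with any of 13 left out, gst1 without wild-type replicate 1 or Δelp3 replicate 1 or 3, and gst3 without wild-type replicate 2 or Δelp3 replicate 3. With date as a term in the model 0 of the 10 passed the test, against 2.55% of all features. Only Δgcn5 Δmst2 had arrays of both dates, 2 of the first and 1 of the second. The date term rests on these arrays, so it cannot separate date from deletion.

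Of 14 stress kinase and transcription regulator genes 1 rose and 0 fell with loss of gcn5 over the 4 backgrounds with all arrays (median 0.04), where 11.6% and 11.3% of all features did. With the doubted libraries left out 2 rose and 1 fell (median 0.05), where 18.2% and 17.4% of all features did. In the Δmst2 background alone 4 of the 14 rose and 0 fell with all arrays (median 0.32), against 15% and 13.2% of all features, and 7 rose and 0 fell without the doubted libraries (median 0.42), against 23% and 20.3%. The gene win1, a kinase of the Sty1 cascade, rose by 0.36 ± 0.09 (adjusted p = 0.00858). With the doubted libraries left out, atf1 rose by 0.41 ± 0.11 (adjusted p = 0.00971) and mcs4, the response regulator of that cascade, fell by 0.26 ± 0.08 (adjusted p = 0.0133). The differences of pap1, prr1 and sty1 were -0.10 ± 0.08, -0.03 ± 0.05 and -0.06 ± 0.08, with adjusted p-values of 0.35, 0.698 and 0.604.

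Other redox genes changed in both directions. Of 13 other glutathione and glutaredoxin genes 3 rose and 3 fell with all arrays, and 3 rose and 4 fell without the doubted libraries, against the 11.6% and 11.3%, and the 18.2% and 17.4%, of all features. With all arrays hmt1, the vacuolar phytochelatin transporter, rose by 0.51 ± 0.10 (adjusted p = 0.00212) and glo1, glyoxalase, rose by 0.35 ± 0.08 (adjusted p = 0.00333). The gamma-glutamyltranspeptidase gene ggt1 fell by 0.36 ± 0.10 (adjusted p = 0.0166) and grx5, a mitochondrial glutaredoxin, fell by 0.35 ± 0.10 (adjusted p = 0.0194). Of 3 other thioredoxin system genes only txl1 passed the test and fell by 0.25 ± 0.09 (adjusted p = 0.0468), and none of 3 superoxide and NADPH genes or of 2 drug efflux genes did in either form.

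Of 8 general stress genes 4 rose and 0 fell in the mean over the 4 backgrounds in both forms, where 11.6% of all features rose with all arrays and 18.2% without the doubted libraries. With all arrays cta3, a cation ATPase, rose by 1.18 ± 0.10 (adjusted p = 5.73e-07), hsp9 by 1.16 ± 0.28 (adjusted p = 0.00687), the trehalase gene ntp1 by 0.82 ± 0.17 (adjusted p = 0.00227) and the trehalose synthase gene tps1 by 0.53 ± 0.15 (adjusted p = 0.0151). In the Δmst2 Δelp3 background, where the strain lacking gcn5 has 1 array and no spread of its own, 5 of the 8 passed the test upwards with all arrays and 6 without the doubted libraries, with a median of 1.49 in both. Of all features 3.43% passed it upwards there with all arrays and 5.88% without the doubted libraries. The difference of srx1 in that background was 2.73.

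Genes of the mating types were high in some of the strains lacking gcn5. Without the doubted libraries the mean log2 level of 6 M-cell genes was 11.38 to 11.94 in Δgcn5, which is the h- strain, 8.13 to 8.35 in Δgcn5 Δmst2, 10.14 in the triple mutant and 7.64 to 8.76 in strains keeping gcn5. That of 3 P-cell genes was 8.87 to 8.90 in Δgcn5, 12.53 to 13.05 in Δgcn5 Δmst2, 11.10 in the triple mutant and 8.54 to 10.73 in strains keeping gcn5. In the mean over the 4 backgrounds 1 of the M-cell genes rose with all arrays and 6 did without the doubted libraries. Of the P-cell genes 3 rose in both forms. Of all features 11.6% rose with all arrays and 18.2% without the doubted libraries. The part of these mating-type genes in the levels of the defence genes was not tested. The Δgcn5 Δelp3 arrays had M-cell levels of 7.76 to 7.97 and P-cell levels of 9.18 to 9.22, within the range of strains keeping gcn5. None of 5 reference genes changed in either form. In the mean over the 4 backgrounds 23% of all features changed with all arrays and 35.7% without the doubted libraries.

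Over the 9 group means the genes whose pattern was most like that of pgt1 were ccr1, yth1 and mug15, with Pearson correlations of 0.96, 0.96 and 0.93. The means held the doubted libraries, and without them the same 3 genes led at 0.97, 0.97 and 0.94. For gst2 they were plr1, pmd1 and smb1, at 0.96, 0.86 and 0.83 with all arrays, and plr1, smb1 and hri2, at 0.97, 0.88 and 0.86, without the doubted libraries. Among the 10 genes the highest correlations with all arrays were between ctt1 and gst3 at 0.85, between gpx1 and gst3 at 0.81, between gst2 and obr1 at 0.79 and between trx2 and pgt1 at 0.76, and without the doubted libraries these were 0.75, 0.80, 0.86 and 0.81. The 9 points share arrays and normalization, and these correlations describe the patterns only.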

How the data were processed

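Messenger RNA was measured in 24 cultures of 9 strain groups. Per the labels, total RNA was extracted with hot phenol and labelled by the Affymetrix one-cycle protocol, and the methods of the study state 3 independent isolates for each strain. The authors processed the arrays with RMA, which corrects the background, makes the arrays' distributions alike and sums the probes of a set, and deposited log2 intensities. RMA compresses dim signals, and the versions the authors used were not found in the labels or methods. The 5028 probe sets held 29 controls, which were left out, and 18 dimmer probe sets of a gene were dropped, leaving 4981 features. Of the probe sets 2917 carried 1 gene symbol, 20 several and 2062 none, and 110 symbols were updated from the RefSeq gene table. Values ran from 4.85 to 15.35 and array medians from 10.99 to 11.08. Depth does not apply to arrays, and the number of arrays limits the precision.

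A mean for each group was fitted with limma 3.58.1 in R 4.3.3 over all 24 arrays (lmFit and eBayes, 15 residual degrees of freedom), and contrasts were tested two-sided with Benjamini-Hochberg adjustment over all features. A log2 difference of 1.7 was an added threshold, taken from the fold of the methods read as linear. The procedure was run on simulated data with independent noise and the same added change in every strain lacking gcn5. Those data held no exchanged labels, date effect or difference between backgrounds, so that run cannot speak to these. Isolates are the replicates, so p-values measure the spread between isolates of 1 strain. The comparisons share arrays. Alternatives were leaving out each array, the doubted libraries, wild-type replicate 2 with them, or the triple mutant array with them, the replicate number as a block, experiment date, 1 date alone, a repeated quantile normalization, a filter at log2 8, another variance model, array weights, other sets of groups, and the mean of a gene's probe sets.

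All 10 genes are named in every group. Of the other lists, regulators whose values are discussed are named and, in each other list, at most the 4 genes with the largest change that passed the test, and the 3 genes most like each of the 2 members with the largest mean difference. The members and lists were chosen with earlier results of these data known. Leaving out the triple mutant array with the doubted libraries, and the patterns of group means without the doubted libraries, were chosen after the values were seen. List genes without a match by symbol, and 2 names shared by several genes, were left out. The titles of the mst1-ts arrays name another gene than their genotype labels, which were followed.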

Additional observations from a re-analysis of the deposited data

Results flagged for a closer look

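In 2 tests, both without the doubted libraries, the difference made by loss of gcn5 was itself different between strain backgrounds. The difference of obr1 in the Δelp3 background exceeded that in wild type by 1.72 ± 0.21 (limma, adjusted p = 0.000118). That of trx2 in the Δmst2 background was -1.28 ± 0.30 relative to wild type (adjusted p = 0.0254). With all arrays neither passed the test (adjusted p = 1 and 0.309).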

How the results depend on the processing

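Of 524 values of single genes under alternatives other than leaving out 1 array, 412 kept their direction and side of the threshold, 76 gained a call, 25 lost it and 11 changed sign. In the mean over the 4 backgrounds pgt1, trx2 and gst3 kept their calls without any single array, and gpx1 and gst1 lost theirs without the triple mutant array alone.

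Counts of the 10 genes moved as follows, each with the percentage of all features called in brackets. On the first date alone 1 fell (2.39%) and 0 rose (3.17%) in the mean over the backgrounds, 1 changed in the Δmst2 background (7.41%), 2 in mst1-ts (27.2%) and 1 with loss of mst2 (1.79%). With all 5 groups keeping gcn5 as the match, 1 rose (11.3%), which was gpx1, and gst3 lost its call. Without the 2 doubted libraries 4 changed in the wild-type background (6.08%), 3 in Δelp3 (2.71%), 4 in Δmst2 Δelp3 (11.5%) and 4 with loss of mst2 (14.7%), and 1 differed between Δmst2 and wild type (3.63%) and 1 between Δelp3 and wild type (1.14%). Without wild-type replicate 2 as well these were 5 (4.42%), 3 (2.83%), 4 (11.6%) and 3 (13.9%), with 1 between Δelp3 and wild type (0.964%). Without the doubted libraries and the triple mutant array they were 4 in wild type (6.08%), 3 in Δelp3 (2.71%), 1 with loss of mst2 (8.55%) and 1 in each of the 2 differences (3.63% and 1.14%). With array weights, whose estimation stopped before it converged, calls rose over all features too: 7 genes changed in wild type (25.8%), 8 in Δmst2 (73.7%), 5 in Δelp3 (16.5%), 6 in Δmst2 Δelp3 (33.3%), 5 in the Δelp3 strain against wild type (46.6%) and 6 with loss of mst2 (47.9%), and the differences gave 6 (43.5%) and 2 (12.6%). On the second date alone 3 changed in Δelp3 (6.32%), 4 in Δmst2 Δelp3 (22.6%) and 4 with loss of mst2 (15.8%). In Δelp3 against wild type 0 passed with date in the model (2.55%), and 0 with a log2 difference of 1.7 as well (0.903%), as for mst1-ts with 0 (3.03%). With a trended, robust variance 1 changed with loss of mst2 (11.8%).

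Leaving out 1 array gave 3 to 5 genes that fell and 1 to 2 that rose in the mean over the backgrounds. Between 0 and 2 changed in wild type, 1 to 6 in Δmst2, 0 to 1 in Δelp3 and 2 to 4 in Δmst2 Δelp3. The differences between backgrounds gave 0 to 1 and 0 to 0. In Δelp3 against wild type 0 to 4 changed, in mst1-ts 2 to 4 and with loss of mst2 0 to 2. With all arrays the shares of all features were 11.3% fallen and 11.6% risen in that mean. In the same order they were 0.12%, 28.2%, 1.1% and 6.91% in the backgrounds and 1.39% and 0.341% in the differences. They were 21.5% in Δelp3, 35.6% in mst1-ts and 11.8% with loss of mst2. Shares with 1 array left out are not given.

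Signs turned as follows. In the mean difference with loss of gcn5, srx1 was 0.96 on the second date alone, and ctt1 was -0.19 with all 5 keeping groups, -0.058 with array weights, -0.059 without wild-type replicate 3, -0.0046 without Δgcn5 replicate 2 and -0.0027 without Δelp3 replicate 3. With loss of mst2, gst2 was -0.25 and srx1 -0.47 on the first date alone, srx1 was -0.37 without the triple mutant array and -0.16 without it and the doubted libraries, and obr1 was 0.30 without the 2 doubted libraries, 0.32 without 3, 0.17 without the triple mutant array as well, 0.20 with array weights, 0.52 on the second date alone, 0.083 without Δgcn5 replicate 2 and 0.094 without Δmst2 replicate 2. Leaving out 1 array thus gave -0.37 to 0.71 for srx1 and -0.41 to 0.094 for obr1 with loss of mst2. The causes were not tested.

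The replicate numbers did not pair the arrays over all groups: over 77 same-numbered pairs the deviations correlated at -0.70 to 0.56 (median -0.01), with 22 over 0.1. Of 21 pairs of groups with 3 such numbers each, 3 had every correlation over 0.1: wild type with Δgcn5, wild type with Δmst2, and mst1-ts with Δgcn5 Δmst2. With the replicate block 3 genes fell (11.1% of all features) and 2 rose (11.6%) in the mean over the backgrounds, obr1 having an adjusted p of 0.051 (limma). In the Δmst2 background 4 changed (27.3%), with obr1 at an adjusted p of 0.0651, and in the wild-type background 0 did (0.12%).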
